A study of Mus musculus with 26 samples.

Results

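Of the 1423 ZFP57 peaks listed for ES cells of the C57BL/6J strain, 680 (47.8%) have a chromosome, start and end that occur nowhere in the list named for hybrid ES cells, and these 680 are described here as C57BL/6J-only peaks. The other 743 peaks (52.2%) occur in both lists with the same start and end to the base, and they make up the whole hybrid list of 743 intervals. No C57BL/6J-only peak overlapped an interval of the hybrid list, which says only that these separate peaks of the C57BL/6J list do not overlap.

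ZFP57 is a zinc finger protein with a KRAB domain that binds the hexanucleotide TGCCGC when the CpG inside it is methylated. Bound ZFP57 recruits the co-repressor KAP1, with which a histone H3 lysine 9 methyltransferase and DNA methyltransferases work, and so keeps chromatin silent. Its best known sites are imprinting control regions, which carry DNA methylation on one parental chromosome. Many other sites lie in long terminal repeats (LTRs) of endogenous retroviruses, above all intracisternal A particles (IAPs), which are numerous and recently active in mice.

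ES cells are pluripotent cells, here male lines grown from the inner cell mass of cultured mouse embryos in 2i and LIF, inhibitors and a cytokine that hold naive pluripotency. ZFP57 chromatin immunoprecipitation covered 3 wild type (WT) and 2 ZFP57 knockout (KO) libraries of strain C57BL/6J, and RNA-seq covered 3 WT and 2 KO libraries of the same strain. The KO is a zygotic, homozygous disruption of the coding exons for the KRAB domain and the zinc fingers in every cell. The hybrid lines are C57BL/6J X 129aa crosses, WT or with ZFP57 knocked out maternally and zygotically, and the labels attach the hybrid list to their H3K9me3 libraries. No ZFP57 library of a hybrid line is among the samples, and the making of that list is not given in the sources used here. Absence from that list is therefore a label of the peak and cannot be read as absence of ZFP57 from the hybrid cells.

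The lists hold positions in mm10 without a score, a read number or a replicate, so the height of a peak and the depth behind it are unknown. The C57BL/6J peaks were called from uniquely aligned paired reads and had to be found in at least 2 WT replicates, so sites in sequence without any unique alignment could not enter that list. All intervals below are Wilson 95% intervals for a share and Newcombe 95% intervals for a difference of shares. They cover counting error only, and peaks on copies of a repeat family share sequence and are not independent.

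To show what the C57BL/6J-only peaks contain, bases around the hexanucleotide are given for some of the element families they hit. These families had 69, 27, 41, 24 and 18 of the peaks, in the order of the lines. They are not the families hit most often, since IAPLTR2_Mm with 54 and IAPLTR2b with 46 are not shown. Each line gives mm10 bases of the plus strand, with TGCCGC or its complement GCGGCA in capitals. Examples are the peak with a single hexanucleotide, at least 50% covered by the element and with the surrounding 16 bases that its family holds most often, whose width was nearest to the family median. Ties were settled by the alphabet, in IAPEY_LTR between a pair of forms and in RLTR13C2 among forms that each occur in a single peak, so the RLTR13C2 line is an arbitrary member. The first 3 are IAP families and the last pair belongs to RLTR13, a separate group of LTRs.
IAPLTR2a2_Mm, chr11:31030235-31030340: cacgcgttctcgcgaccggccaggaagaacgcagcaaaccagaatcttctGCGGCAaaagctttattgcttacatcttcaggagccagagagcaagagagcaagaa
IAPLTR1a_Mm, chr17:91836750-91836855: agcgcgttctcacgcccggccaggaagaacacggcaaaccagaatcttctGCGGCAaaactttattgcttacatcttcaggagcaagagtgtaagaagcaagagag
IAPEY_LTR, chr6:55188276-55188381: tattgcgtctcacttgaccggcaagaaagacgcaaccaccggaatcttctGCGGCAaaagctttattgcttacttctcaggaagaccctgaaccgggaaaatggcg
RLTR13B1, chr5:91470043-91470148: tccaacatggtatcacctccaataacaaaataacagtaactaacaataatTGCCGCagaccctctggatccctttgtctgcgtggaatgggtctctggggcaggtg
RLTR13C2, chr15:35184622-35184727: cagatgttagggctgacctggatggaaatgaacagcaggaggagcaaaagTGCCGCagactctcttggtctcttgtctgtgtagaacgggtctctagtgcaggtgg
The IAP examples share ttctGCGGCAaaa, which reads tttTGCCGCagaa on the other strand, whereas both RLTR13 examples read TGCCGCaga followed by c.

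TGCCGC was present on either strand in 629 of the 680 C57BL/6J-only peaks (92.5%, 90.3 to 94.2). In the shared peaks it was present in 680 of 743 (91.5%), a difference of 0.979 percentage points (-1.88 to 3.81). Equally wide intervals 2000 bp upstream held it beside 31 C57BL/6J-only peaks (4.56%), and 3813 of 32851 RefSeq promoter windows of 300 bases held it (11.6%). The hexanucleotide lay a median of 38.5 bp from the midpoint of a C57BL/6J-only peak. One copy was found in 481 peaks (70.7%), and at least 3 copies in 36 (5.29%), against 60 (8.08%) of the shared peaks, a difference of -2.78 points (-5.40 to -0.162). The next base was A at 68.2% of the copies in C57BL/6J-only peaks and at 68.6% of those in shared peaks. The presence of the hexanucleotide thus did not separate the peak sets beyond counting error, and the share with at least 3 copies was lower by an interval that only just excludes 0. With at least 2 copies the shares were 21.8% and 25.3%, a difference of -3.54 points (-7.92 to 0.884).

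The bases around the hexanucleotide differed in share between the sets, which also differed in the elements they lay on. The 12 bases ttTGCCGCagaa were found on either strand in 287 C57BL/6J-only peaks (42.2%) and 386 shared peaks (52.0%), and in 26 of the 32851 promoter windows (0.0791%). Its core TGCCGCagaa was found in 305 (44.9%) and 409 (55.0%), a difference of -10.2 points (-15.3 to -5.00). Of the 287, 281 lay on IAPs, where 75.1% of the C57BL/6J-only peaks carried this form. None of the 119 C57BL/6J-only peaks off elements carried it, and neither did any of the 84 on RLTR13. The form was not counted in the 500 shared peaks on IAPs. A difference in sequence therefore cannot be told apart from one in element makeup. The 10 bases TGCCGCagac went the other way between the sets. They were found in 81 C57BL/6J-only peaks (11.9%) and 23 shared peaks (3.10%), a difference of 8.82 points (6.13 to 11.7), and in 8 promoter windows (0.0244%). No interval 2000 bp upstream of any peak held them. Of the 81, 75 lay on RLTR13 elements, where they marked 89.3% of the C57BL/6J-only peaks. The 3 commonest surroundings of 16 bases were agtttTGCCGCagaag, in 106 C57BL/6J-only and 150 shared peaks, gctttTGCCGCagaag, in 97 and 131, and agcttTGCCGCagaag, in 75 and 94.

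Transposable elements, as named and placed in the study's annotation of bound elements, were touched by 561 C57BL/6J-only peaks (82.5%, 79.5 to 85.2) and by 634 shared peaks (85.3%), a difference of -2.83 points (-6.68 to 0.987). The kind of element differed more than the share. IAPs carried 374 C57BL/6J-only peaks (55.0%) and 500 shared peaks (67.3%), a difference of -12.3 points (-17.3 to -7.23). Other LTR elements carried 155 (22.8%) and 104 (14%), a difference of 8.80 points (4.78 to 12.8). LINEs carried 16 C57BL/6J-only peaks, SINEs 14 and DNA transposons 2, each within counting error of the shared peaks. The remaining 119 peaks (17.5%) touched no annotated element.

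RLTR13 families made up the excess of other LTR elements. They carried 84 C57BL/6J-only peaks and 20 shared peaks, so that 80.8% (72.2 to 87.2) of their peaks were C57BL/6J-only. As a share of each set, that is 12.4% against 2.69%, a difference of 9.66 points (6.98 to 12.5). RLTR13C2 had 18 of its 20 peaks among the C57BL/6J-only ones (90.0%, 69.9 to 97.2), RLTR13B1 24 of 33 (72.7%) and RLTR13G 10 of 14 (71.4%). LTR elements other than IAPs and RLTR13 carried 71 C57BL/6J-only peaks (10.4%) and 84 shared peaks (11.3%), a difference of -0.864 points (-4.10 to 2.41). TGCCGC was found in 51 of the 71 (71.8%), and in 2 of the 8 on ETnERV-int, the internal part of a retrovirus. The RLTR13 peaks were short of CpG. Their median was 5 CpGs in 238 bp, or 1.83 per 100 bp, and TGCCGC was found in 83 of the 84. The 20 shared RLTR13 peaks had a median of 4.5 CpGs in 292 bp, so within these families the CpG number was about the same in the peak sets.

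IAP families differed among themselves. IAPLTR2a2_Mm, the family with most peaks, had 69 of 185 among the C57BL/6J-only ones (37.3%, 30.7 to 44.5). IAPLTR1a_Mm had 27 of 88 (30.7%, 22.0 to 41.0). IAPEY_LTR had 41 of 74 (55.4%, 44.1 to 66.2) and IAPLTR2a 41 of 77 (53.2%, 42.2 to 64.0). The intervals of IAPLTR2a2_Mm and IAPLTR1a_Mm lie below the 47.8% of all peaks, and those of IAPEY_LTR and IAPLTR2a include it.

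**Figure D1:**
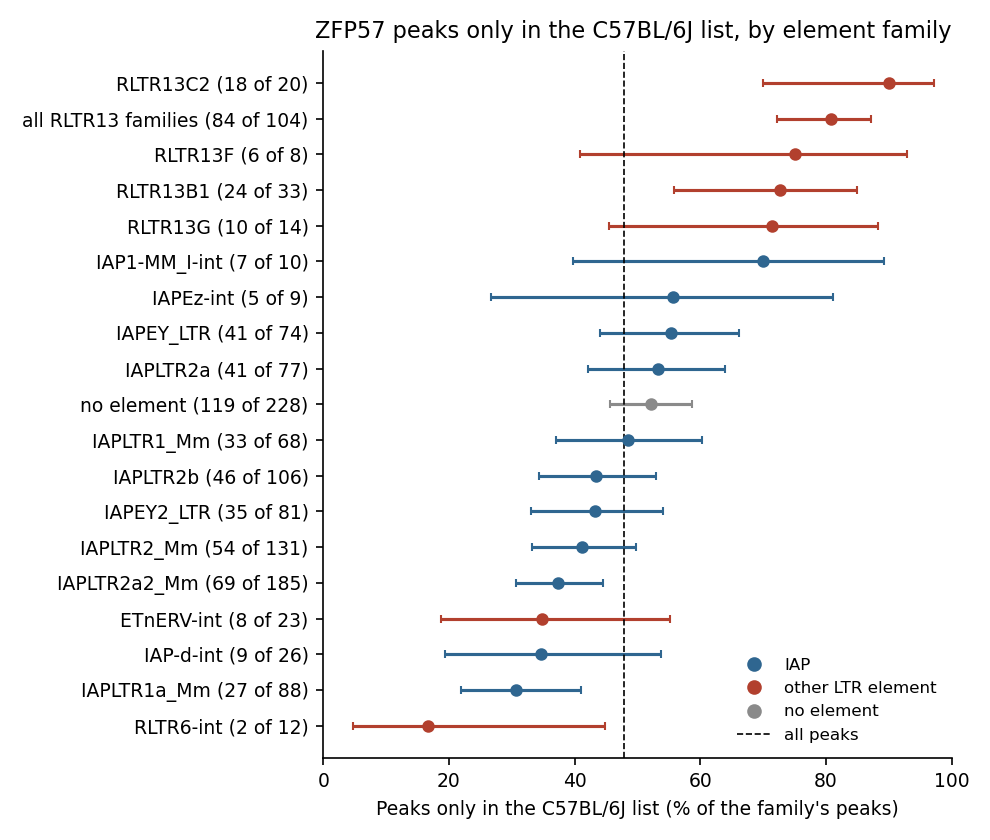
Share of each element family's ZFP57 peaks that are only in the C57BL/6J list, for families with at least 8 peaks, all RLTR13 families together and peaks on no element. Points are shares in %, bars Wilson 95% intervals, and the dashed line is the 47.8% of all peaks. the 4 RLTR13 families shown lie at 71.4 to 90.0%, and IAPLTR1a_Mm and IAPLTR2a2_Mm lie at 30.7 and 37.3%.

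The length of the bound IAP separated the peak sets as well. An LTR left alone after recombination is short, whereas an IAP with internal sequence runs to several kilobases. Of the 248 peaks on annotated IAPs of up to 1000 bp, 146 were C57BL/6J-only (58.9%, 52.7 to 64.8). Of the 470 peaks on IAPs of over 1000 and up to 5000 bp, 173 were (36.8%, 32.6 to 41.3), and of the 156 on longer ones, 55 were (35.3%, 28.2 to 43.0). The first interval overlaps neither of the others, while those of the longer elements overlap each other. IAPs of up to 1000 bp thus held 21.5% of the C57BL/6J-only peaks and 13.7% of the shared ones, a difference of 7.74 points (3.79 to 11.7). In the family IAPLTR2_Mm the median element was 482 bp long under C57BL/6J-only peaks and 2957 bp under shared peaks. In IAPLTR2a the medians were 414 and 2750 bp. In IAPLTR2a2_Mm they were close, at 2532 and 2722 bp, so the families did not all differ in the same measure. These length limits were chosen after the lengths had been seen.

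C57BL/6J-only peaks were a little narrower and held fewer CpGs. Their median width was 274 bp (quartiles 215 and 374, range 180 to 1965), against 306 bp (232 and 403) in the shared peaks. The median number of CpGs was 9 (quartiles 6 and 14) against 12 (8 and 18), and per 100 bp it was 3.17 against 3.77. Off elements the medians were 2.72 and 4.02 CpGs per 100 bp. Of the peaks with 1 to 4 CpGs, 93 of 140 were C57BL/6J-only (66.4%, 58.3 to 73.7). The share was 56.7% at 5 to 9 CpGs, 43.6% at 10 to 14, 35.3% at 15 to 24 and 35.7% (27.5 to 44.7) at 25 or more. The share fell over the lower bins, and the upper pair overlapped. Among 11 families with at least 20 peaks, 5 or more of each kind, the C57BL/6J-only peaks had the lower median of CpGs per 100 bp in 9 families and the lower median width in 9. The median number of CpGs was lower in only 6 of the 11 and equal in 2.

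**Figure D2:**
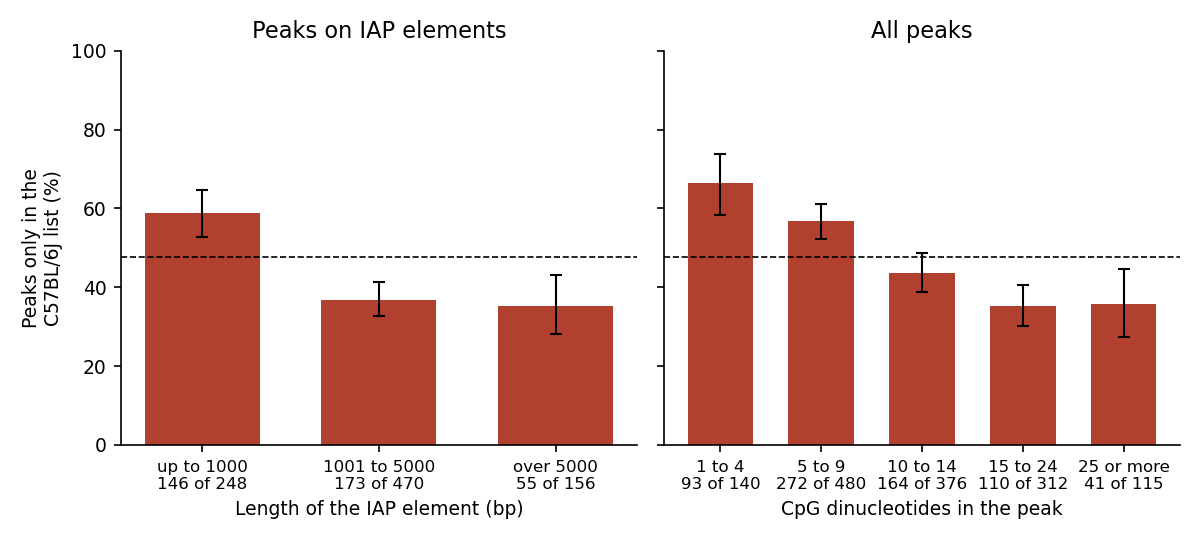
Share of ZFP57 peaks only in the C57BL/6J list (%), by the length of the bound IAP element in bp (left, peaks on IAPs) and by the number of CpGs in the peak (right, all peaks). Bars are shares, error bars Wilson 95% intervals, the dashed line is 47.8%, and the counts stand under each bar. The share is 58.9% on short IAPs against 36.8 and 35.3% on longer ones, and runs from 66.4% at 1 to 4 CpGs to 35.7% at 25 or more.

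Repeats masked in the reference covered at least 50% of the bases in 421 C57BL/6J-only peaks (61.9%) and 513 shared peaks (69.0%), a difference of -7.13 points (-12.0 to -2.19). The median was 66% masked bases against 78.5%. C57BL/6J-only peaks on RLTR13 had a median of 51.1%.

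C57BL/6J-only peaks stood alone more often. Another peak lay within 10 kb of 88 of them (12.9%), against 202 shared peaks (27.2%), a difference of -14.2 points (-18.3 to -10.1). A peak of the other kind lay within 10 kb of 34. Of the 149 neighbouring pairs no more than 10 kb apart, 27 were both C57BL/6J-only, 88 both shared and 34 of 1 kind each (22.8%, 16.8 to 30.2). Of the 273 pairs over 3 Mb apart, 131 were of 1 kind each (48.0%, 42.1 to 53.9). Close neighbours were thus more often of one kind than distant ones, and this came from the shared peaks. Pairs with both shared were 59.1% up to 10 kb apart and 23.4% over 3 Mb apart. Pairs with both C57BL/6J-only were 18.1% and 28.6%. Of the 94 elements with several peaks, 13 had 2 C57BL/6J-only peaks, 65 had 2 shared peaks, 1 had 3 shared peaks and 15 had 1 of each kind. On the 15 mixed elements, 1 peak of the element is in the hybrid list and the other is not, with a median gap of 2061 bp between them.

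**Figure D3:**
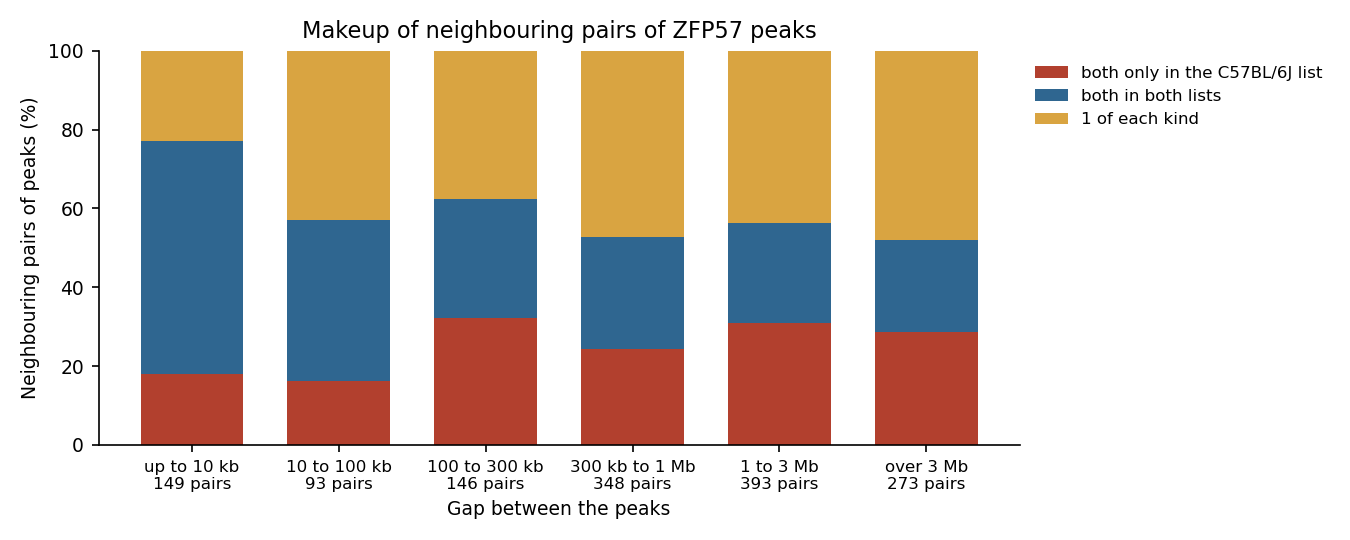
Makeup of neighbouring pairs of ZFP57 peaks on a chromosome, in % of the pairs, by the gap between them. Colours show pairs with both peaks only in the C57BL/6J list, both in both lists, or 1 of each kind. Mixed pairs are 22.8% of those up to 10 kb apart and 48.0% of those over 3 Mb apart.

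On the autosomes, the share of peaks that were C57BL/6J-only ranged from 17 of 58 on chromosome 16 (29.3%, 19.2 to 42.0) and 29 of 86 on chromosome 13 (33.7%, 24.6 to 44.2) to 38 of 57 on chromosome 14 (66.7%, 53.7 to 77.5). The interval of chromosome 14 overlaps neither of the others. Chromosome X had 8 C57BL/6J-only peaks and 4 shared ones, and chromosome Y a single C57BL/6J-only peak.

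Genes of imprinting control regions lay mostly by shared peaks. Of 27 genes that mark such regions or imprinted domains, 22 had a shared peak within 20 kb, beside 558 of all 24261 placed genes. Only *H19* had a C57BL/6J-only peak within 20 kb, beside 503 of the 24261 genes. With so low a background, 27 genes cannot show a lack of C57BL/6J-only peaks. For *Gpr1*, *H13* and *Zdbf2* the nearest peak was C57BL/6J-only, but 1027041, 2403744 and 935743 bp away. *H19* encodes a maternally expressed RNA, and the control region upstream of it is methylated on the paternal chromosome. The C57BL/6J-only peak, 3580 bp from *H19* at chr7:142581726-142582099, held 3 hexanucleotides and 16 CpGs. A shared peak lay closer, 1809 bp from the gene. Of its copies, the first pair lie close together on opposite strands and the last lies far from them.
H19 region, chr7:142581771-142582069: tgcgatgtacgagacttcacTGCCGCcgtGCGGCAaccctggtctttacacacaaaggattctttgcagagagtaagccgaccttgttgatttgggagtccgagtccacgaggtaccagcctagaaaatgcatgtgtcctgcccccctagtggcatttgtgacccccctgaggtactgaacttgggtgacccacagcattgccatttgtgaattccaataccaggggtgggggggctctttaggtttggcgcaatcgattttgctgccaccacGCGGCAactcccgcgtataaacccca
*H19* itself had 0.44, 0.62 and 0.52 FPKM in the WT libraries and 0.59 and 0.61 in the KO libraries, so the groups overlapped, and the test did not call it (log2 fold change 0.17 ± 0.17 SE, limma adjusted p = 0.47). *Mir675*, a microRNA gene inside *H19* and 4579 bp from the peak, had 0.43, 0.20 and 0.23 FPKM in WT and 0.68 and 0.86 in KO, without overlap, and was called (log2 fold change 1.21, SE 0.28, limma adjusted p = 0.017). Its reads cannot be told apart from those of *H19*, and at its short length few fragments stand behind these values. FPKM is the number of sequenced fragments scaled to transcript length and library size.

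The peak in *Zim1*, an imprinted zinc finger gene of the *Peg3* domain, lay in its coding exon at chr7:6677578-6677926, 25966 bp from *Peg3*, whose own region had a shared peak. It held a single hexanucleotide.
Zim1 exon, chr7:6677703-6677808: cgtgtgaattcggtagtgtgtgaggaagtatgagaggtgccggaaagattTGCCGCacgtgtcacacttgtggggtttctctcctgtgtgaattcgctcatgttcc
*Zim1* was at or below 0.12 FPKM in every library, under the mean of 0.1 FPKM needed for a test. *Zim2*, 15210 bp from this peak, had 1.02, 0.66 and 0.93 FPKM in WT and 0.38 and 0.34 in KO, without overlap. It fell by 1.06 on the log2 scale (SE 0.20, limma adjusted p = 0.0088). *H19*, *Mir675*, *Zim1* and *Zim2* were picked for description after their values were seen.

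The C57BL/6J-only peak with most hexanucleotides held 37, at chr1:171490350-171490929, and the next of these peaks held 6, while shared peaks held up to 19. All 36 gaps between neighbouring copies were 8 bp from start to start, with every copy on the minus strand, so the copies form a tandem array. The peak touched no annotated element and held 43 CpGs. Its midpoint was 12838.5 bp from the nearest gene start, of *Alyref2*, and another C57BL/6J-only peak lay 2646 bp away. The start of the array reads as follows.
Tandem array, chr1:171490436-171490535: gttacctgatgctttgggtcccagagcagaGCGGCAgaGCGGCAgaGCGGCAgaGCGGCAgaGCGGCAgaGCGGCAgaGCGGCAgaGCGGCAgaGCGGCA

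Relative to genes, 8 C57BL/6J-only peaks had their midpoint within 1000 bp of a RefSeq gene start (1.18%, 0.597 to 2.30), against 18 shared peaks (2.42%). Exons held 29 (4.26%), introns 167 (24.6%) and intergenic sequence 476 (70.0%), each within counting error of the shared peaks. Of the 29 exonic peaks, 22 had their midpoint in coding sequence, 27 held the hexanucleotide and 25 touched no element. Genes whose symbols begin with Zfp, Zscan, Zkscan, Zik or Zbtb, prefixes of zinc finger genes, supplied 6 of them, *Zfp267*, *Zscan20*, *Zbtb8b*, *Zscan25*, *Zfp27* and *Zfp612*, and 10 of the 36 exonic shared peaks. *Zim1*, described above, is a further zinc finger gene that these prefixes miss. The other genes included *Disp1*, a transporter that releases Hedgehog ligands, with 82 CpGs in a peak of 1319 bp, *Dyrk3*, a protein kinase, and *Scn3a*, a sodium channel subunit. In *Zfp267* and *Zbtb8b* the hexanucleotides stood several to a peak, and the midpoints of both peaks lay in coding sequence.
Zfp267 exon, chr3:36165001-36165300: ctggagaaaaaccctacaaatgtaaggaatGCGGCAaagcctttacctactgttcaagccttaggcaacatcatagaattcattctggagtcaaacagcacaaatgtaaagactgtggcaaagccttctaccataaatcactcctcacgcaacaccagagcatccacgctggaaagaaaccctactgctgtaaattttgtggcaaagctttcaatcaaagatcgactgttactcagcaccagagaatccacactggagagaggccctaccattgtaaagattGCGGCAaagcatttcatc
Zbtb8b exon, chr4:129432816-129432897: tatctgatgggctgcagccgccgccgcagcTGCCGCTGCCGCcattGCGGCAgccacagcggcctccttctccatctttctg

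The targeted gene was checked first in the RNA libraries. *Zfp57* had 75.9, 72.3 and 70.5 FPKM in WT and 19 and 21.6 in KO, with no overlap. It fell by 1.84 on the log2 scale (SE 0.06, limma adjusted p = 2.3e-04), and the gene table does not tell the disrupted exons from the rest. Fold changes are on the scale log2(FPKM + 0.1), which understates changes of low genes. The labels number the libraries without saying whether each is a separate line, so the p-values measure the spread between these libraries, and a lower level in a bulk library cannot be told apart from fewer cells that express the gene.

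The KO libraries differed from WT at many genes, so a call near a peak says little by itself. Of 14612 genes tested, 6002 were called at an adjusted p under 0.05 (41.1%), 18.8% higher and 22.3% lower in KO. On chromosome 11 the median log2 fold change was -0.47, against 0.01 elsewhere, and 858 of 1224 placed genes there were called, 825 of them lower. The naive ES cell markers summed to 642 to 661 FPKM in WT and 724 to 783 in KO, with 4 of 7 higher and none lower. The 5 primitive endoderm markers summed to at most 1.31 FPKM in any library, the 4 primed epiblast and mesoderm markers to 0.660 to 0.990 in WT and 1.41 to 1.91 in KO, and the 5 feeder fibroblast markers to at most 0.36, with *Dcn* at 0 in all libraries. Trophoblast markers summed to 15.8 to 17.9 FPKM in WT and 13.9 to 15.7 in KO, most of it *Tfap2c*, which ES cells also express. Within these lists *Eomes*, *Sox7*, *Fgf5* and *T* were higher in KO at low levels, up to 2.40, 0.90, 0.44 and 1.02 FPKM. Of 4 tested trophoblast markers, 1 was called higher and 1 lower, *Tfap2c* (log2 fold change -0.44, limma adjusted p = 0.012). Of 3 tested primitive endoderm markers, only *Sox7* was called, and their median log2 fold change was -0.11. Of 4 tested primed epiblast and mesoderm markers, 2 were called higher and 0 lower. The part of these shifts in the results near peaks was not tested.

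The comparison between KO and WT asks whether genes beside these peaks change when ZFP57 is lost. Within 20 kb of a C57BL/6J-only peak lay 503 genes of the table, and 363 of the 680 peaks had at least 1 such gene. Of these genes 333 passed the filter of a mean of at least 0.1 FPKM, and 145 of them were called (43.5%, 38.3 to 48.9), 56 higher and 89 lower in KO, beside the 41.1% of all genes. Within 20 kb of a shared peak, 180 of 396 tested genes were called (45.5%, 40.6 to 50.4), 76 higher and 104 lower. The median log2 fold change was -0.05 near C57BL/6J-only peaks and -0.03 near shared peaks. The count at this threshold was near the background, and genes with a higher level in KO made up 16.8%, against the 18.8% of all genes. When a log2 change of 1 or more in size was also required, 38 were called (11.4%), 11 higher and 27 lower, which is above the 8.02% of all genes. With each chromosome's median subtracted, 118 of the 333 were called (35.4%), below the 37.4% of all genes.

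Chromosome 11 held a large part of the lower genes. Of its 39 tested genes near a C57BL/6J-only peak, 30 were called, 1 higher and 29 lower, 74.4% lower beside 67.4% of all tested genes of the chromosome. On the other chromosomes 115 of 294 were called (39.1%, 33.7 to 44.8), 55 higher and 60 lower, against 38.4% of all tested genes there. Where the gene itself overlapped a C57BL/6J-only peak, 54 of 136 were called (39.7%), 26 higher and 28 lower. By the nearest peak, 53 of 104 genes were called near peaks off elements (51.0%, 41.5 to 60.4), 60 of 142 near IAP peaks (42.3%, 34.4 to 50.5) and 15 of 41 near RLTR13 peaks (36.6%, 23.6 to 51.9), beside 41.1% of all genes. The interval near peaks off elements lies just above that share, with 26.0% of the genes higher and 25% lower in KO, and it overlaps the intervals of the other kinds.

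**Figure D4:**
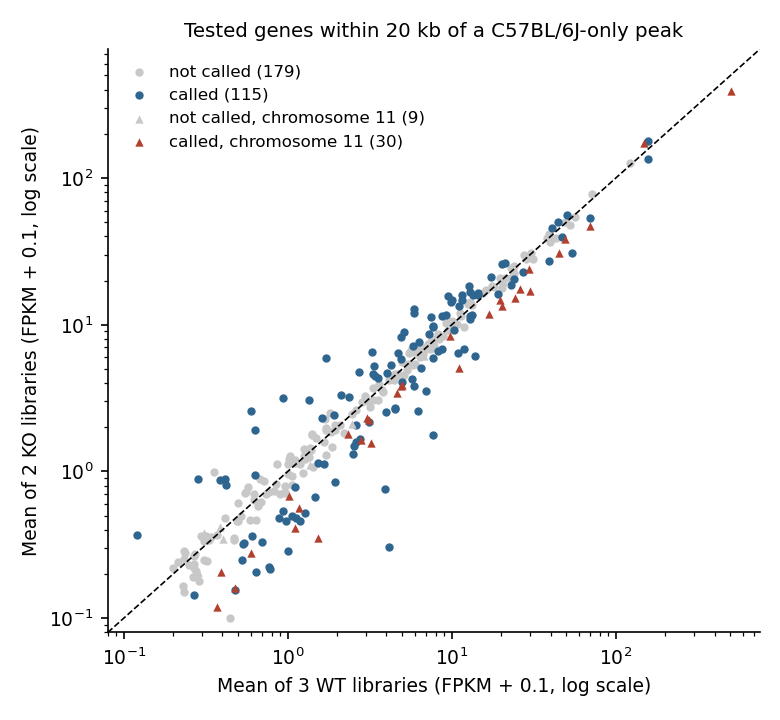
Mean expression in 2 KO against 3 WT libraries (FPKM + 0.1, log axes), for the 333 genes near a C57BL/6J-only peak that were tested. Blue circles and red triangles (chromosome 11) are called genes, pale symbols genes that were not called, and the dashed line marks equal levels. Called genes lie on both sides of the line, except on chromosome 11, where 29 of 30 lie below it.

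Among the called genes near these peaks, the 8 with the largest rise and the 8 with the largest fall were named by rule, taking those that averaged 1 FPKM or more and whose KO libraries lay outside the WT range. The rule uses the values themselves, so the tests below describe how large and even these changes were. *Nt5e*, which encodes the cell surface enzyme CD73 that makes adenosine, had 0.55, 0.57 and 0.37 FPKM in WT and 2.34 and 2.67 in KO. It rose by 2.14 on the log2 scale (SE 0.19, limma adjusted p = 7.1e-04). Its peak, on an IAPLTR1a_Mm element 3916 bp from the gene, held the common IAP form, ttTGCCGCagaa, shown here from the opposite strand.
Nt5e peak, chr9:88323540-88323645: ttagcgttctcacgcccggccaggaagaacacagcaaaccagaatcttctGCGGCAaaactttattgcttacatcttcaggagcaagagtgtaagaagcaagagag
*Atf5*, a stress-responsive transcription factor, had 1.62, 1.90 and 1.34 FPKM in WT and 5.06 and 6.67 in KO (log2 fold change 1.79, SE 0.18, limma adjusted p = 9.0e-04). Its peak lay 8875 bp away on an RLTR13B1 element with the RLTR13 form of the sequence.
Atf5 peak, chr7:44803190-44803295: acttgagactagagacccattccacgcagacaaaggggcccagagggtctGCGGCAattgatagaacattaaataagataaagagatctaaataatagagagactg
Neither gene had a shared peak within 20 kb.

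*Zmat4*, which encodes a zinc finger protein, had 0.57, 0.53 and 0.50 FPKM in WT and 1.75 and 1.91 in KO (log2 fold change 1.61, SE 0.13, limma adjusted p = 5.7e-04). The peak lay in an intron of the gene, off any element, with 2 hexanucleotides in 199 bp. *Hyal1*, a lysosomal hyaluronidase, had 3.32, 3.07 and 3.12 FPKM in WT and 5.93 and 7.0 in KO (log2 fold change 1.00, SE 0.09, limma adjusted p = 7.3e-04). Its peak, 8628 bp away, lay in an intron of a neighbouring gene and held 2 hexanucleotides almost side by side. *Odf2l*, a gene for a centriolar protein, was the only called gene of the 5 tested genes with a C57BL/6J-only peak at the promoter. It had 1.01, 1.55 and 1.19 FPKM in WT and 2.71 and 3.25 in KO (log2 fold change 1.20, SE 0.19, limma adjusted p = 0.0040), and its peak ended 653 bp before the gene. In each of these genes the KO libraries lay above all WT libraries.
Zmat4 peak, chr8:23916018-23916138: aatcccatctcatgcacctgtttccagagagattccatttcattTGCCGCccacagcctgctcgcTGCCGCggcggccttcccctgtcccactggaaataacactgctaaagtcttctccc
Hyal1 peak, chr9:107590435-107590507: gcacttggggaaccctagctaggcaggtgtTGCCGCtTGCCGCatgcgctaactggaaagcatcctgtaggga
Odf2l peak, chr3:145117831-145117916: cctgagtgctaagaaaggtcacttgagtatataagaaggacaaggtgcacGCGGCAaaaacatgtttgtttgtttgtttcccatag

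*Mapk4*, an atypical MAP kinase gene on chromosome 18, had 0.73, 0.94 and 0.85 FPKM in WT and 3.23 and 2.93 in KO (log2 fold change 1.76, SE 0.13, limma adjusted p = 5.4e-04). An intronic peak of 575 bp with 3 hexanucleotides lay in it, on an IAPEY2_LTR element. *B3gnt7*, a glycosyltransferase gene 10122 bp from an IAPLTR2a2_Mm peak, had 5.14, 6.18 and 5.94 FPKM in WT and 13.5 and 12 in KO. *Plk2*, a polo-like kinase gene 13822 bp from its peak, had 5.89, 6.17 and 5.26 FPKM in WT and 8.79 and 15.1 in KO. Both rose, *B3gnt7* by 1.14 (SE 0.10, limma adjusted p = 6.2e-04) and *Plk2* by 0.99 (SE 0.21, limma adjusted p = 0.013), and the KO libraries of *Plk2* stood far apart from each other.

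The largest fall was that of *Mypn*, which encodes myopalladin, a protein of the muscle sarcomere. It had 4.13, 3.46 and 4.57 FPKM in WT and 0.21 and 0.20 in KO, and fell by 3.76 on the log2 scale (SE 0.14, limma adjusted p = 2.3e-04). Its peak, 4293 bp away on a B1F element, was one of the 51 C57BL/6J-only peaks without the hexanucleotide. *Agpat9*, an acyltransferase of triglyceride synthesis, had 3.58, 4.05 and 3.84 FPKM in WT and 0.76 and 0.55 in KO (log2 fold change -2.39, SE 0.14, limma adjusted p = 3.5e-04). *Fabp5*, a fatty acid binding protein, had 8.31, 6.40 and 8.10 FPKM in WT and 1.42 and 1.90 in KO (log2 fold change -2.13, SE 0.16, limma adjusted p = 5.2e-04). Their peaks lay 6284 bp away on an IAPEY_LTR element and 16605 bp away on a L1Md_A element. The KO libraries of both genes lay below all WT libraries, as the rule requires.

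*Dpp4*, the cell surface peptidase CD26, had 12.6, 14.4 and 14.5 FPKM in WT and 5.83 and 6.15 in KO (log2 fold change -1.19, SE 0.08, limma adjusted p = 3.8e-04). Its peak, on an IAPLTR2b element 3766 bp away, again held the IAP form.
Dpp4 peak, chr2:62416139-62416244: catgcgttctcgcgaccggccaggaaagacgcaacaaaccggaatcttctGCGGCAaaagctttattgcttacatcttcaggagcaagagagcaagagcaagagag
The form ttTGCCGCagaa stood beside a gene that rose, *Nt5e*, and a gene that fell, *Dpp4*, while the bases further out differed. Whether the sequence goes with the direction of change was not tested. *A230050P20Rik*, *1700003M02Rik*, *Bcas3* and *Golim4*, the other genes named for a fall, had log2 fold changes of -1.27, -1.20, -1.13 and -1.12, with KO libraries below all WT libraries. *1700003M02Rik* and *Bcas3* also had a shared peak within 20 kb, the only ones of the 16 genes that did. *Bcas3* lies on chromosome 11, and with each chromosome's median subtracted its log2 fold change was -0.65 (limma adjusted p = 0.0011).

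**Figure D5:**
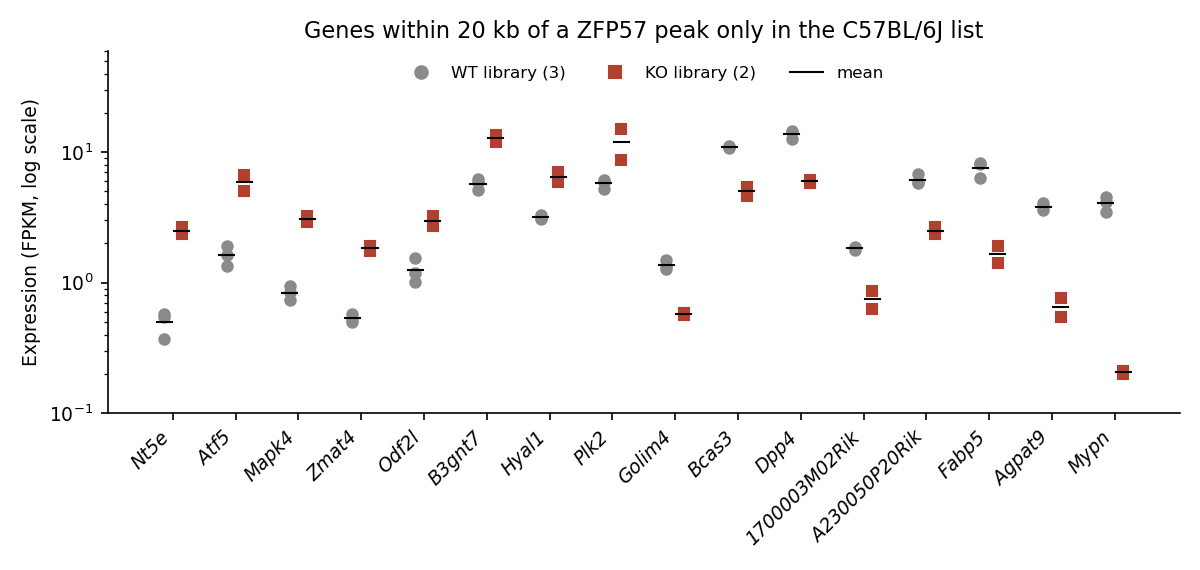
Expression (FPKM, log axis) of the 16 genes named by rule within 20 kb of a C57BL/6J-only peak, from the largest rise to the largest fall. Grey circles are 3 WT libraries, red squares 2 KO libraries and lines their means. The KO libraries lie above all WT libraries for 8 genes and below them for 8, as the rule requires.

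The genes with a peak at the promoter or in a zinc finger exon are too few to set against the 41.1% called among all genes. *Angptl6* had 0.27, 0.39 and 0.28 FPKM in WT and 0.31 and 0.45 in KO, overlapping, although its peak lay 84.5 bp from the gene start (log2 fold change 0.21, SE 0.22, limma adjusted p = 0.48). *5330411J11Rik*, *Dpep3* and *Dnah17* had log2 fold changes of -0.42, -0.43 and -0.23 with limma adjusted p of 0.14, 0.31 and 0.35. Of the 6 genes with zinc finger prefixes and an exonic C57BL/6J-only peak, *Zfp27* was called. *Zfp27* had 2.32, 2.36 and 2.09 FPKM in WT and 3.34 and 2.93 in KO (log2 fold change 0.46, SE 0.10, limma adjusted p = 0.014), and lost the call without KO replicate 1 (0.36, adjusted p = 0.071) and under the replicate block (0.40, adjusted p = 0.092). *Zbtb8b*, whose exon is shown above, had 0.87, 0.78 and 0.94 FPKM in WT and 0.58 and 0.68 in KO, without overlap, and was not called (log2 fold change -0.40, SE 0.15, limma adjusted p = 0.074), but it was called when limma ran without the trend (adjusted p = 0.043). *Zfp267*, listed in the gene table under the symbol *D3Ertd254e*, *Zscan20*, *Zscan25* and *Zfp612* had log2 fold changes between -0.27 and 0.02 and were not called, although *D3Ertd254e* was called without KO replicate 1 (-0.28, limma adjusted p = 0.041).

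Genes of the silencing machinery that ZFP57 works with did not move one way. Of 19 tested, 5 were higher and 8 lower in KO, beside 18.8% higher and 22.3% lower among all genes, with a median log2 fold change of -0.10, beside -0.01 over all placed genes. *Dnmt3a*, a de novo DNA methyltransferase, had 10.4, 9.21 and 11 FPKM in WT and 3.25 and 2.84 in KO, and fell by 1.71 on the log2 scale (SE 0.10, limma adjusted p = 3.3e-04). *Trim28*, the gene of KAP1, had 157, 155 and 160 FPKM in WT and 142 and 140 in KO (log2 fold change -0.16, SE 0.03, limma adjusted p = 0.014). *Cbx1* was lower, by 0.59, and *Cbx3* and *Cbx5* were higher, by 0.37 and 0.47, all 3 of them heterochromatin protein genes, of which *Cbx1* lies on chromosome 11.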

How the data were processed

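The authors called the C57BL/6J peaks from uniquely aligned reads and kept those found in at least 2 WT replicates. The deposited lists hold intervals only. The submitters' processing notes name the build mm10 and FastQC 0.11.5, Trim Galore 0.2.7, BWA 0.6.2, Picard, MACS2 2.1.0 and STAR 2.5.2, without roles. The authors deposited 1 gene table in FPKM, rounded to 2 decimals and without counts, and the tool that computed FPKM is not given in the sources used here. Peaks were matched by chromosome, start and end. Sequence came from the GRCm38.p6 RefSeq genome, and elements from the study's annotation (name and position only). Genes averaging 0.1 FPKM or more were tested with limma 3.58.1 (R 4.3.3, eBayes with trend) on log2(FPKM + 0.1), 3 WT against 2 KO, with Benjamini-Hochberg adjustment at 0.05. For a single gene an exact permutation test of 3 against 2 cannot go below p = 0.1. Of 24409 genes, 23165 were placed by symbol and 1096 by synonym. One fragment on 1 kb was worth 0.0170 to 0.0197 FPKM, and 17504 to 18138 genes were above 0 per library. The limma step was tested on simulated data. Named genes were the 8 highest and 8 lowest called genes within 20 kb, plus tested genes with a peak at the promoter or in a zinc finger exon. Members and lists were chosen with earlier results of these data known. The RLTR13 grouping, CpG bins, neighbour pairs, extended motifs and the tandem array were chosen after values were seen.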

Additional observations from a re-analysis of the deposited data

How the results depend on the processing

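The share of C57BL/6J-only peaks with the hexanucleotide was 78.2% in the central 200 bp and 95% after widening by 100 bp. The share on elements was 63.8% when 50% of the peak had to be covered and 64.3% by midpoint. Peaks at least 80% masked were 36.8%, and 92.2% had any masked base. Promoter peaks numbered 13 within 2000 bp and 4 within 500 bp. Against 145 of 333 genes called near the peaks, 54 of 136 were called among genes overlapping a peak (39.7%) and 278 of 623 within 50 kb (44.6%), beside 41.1% of all genes. When a log2 change of 1 or more in size was required, 38 were called (11.4%, beside 8.02%). Leaving out 1 library gave 103 to 131 (30.7 to 39.1%, beside 28.3 to 33.0% of all genes). Subtracting each chromosome's median gave 118 (35.4%, below the 37.4% of all genes). With the replicate block 82 were called (24.6%, beside 20.6% of all genes, 3012 against 6002). Deviations of libraries with the same number correlated at -0.07 and -0.04. The deviations of 2 KO libraries from their mean mirror each other, so these values cannot show whether such libraries share more than a number. Reversed log2 fold changes were those of *Dnah17*, 0.25 with each chromosome's median subtracted, and *Zscan25*, -0.07 to 0.11 when leaving out 1 library. None of these was called. Of 17 called named genes, 16 kept the call under every alternative run, and *Zfp27* lost it as given above. A call was gained by *D3Ertd254e* without KO replicate 1 (-0.28, limma adjusted p = 0.041) and by *Zbtb8b* without the trend (-0.40, limma adjusted p = 0.043). The cause was not tested. Peak heights and read depth are unknown, and 2 KO libraries limit the precision of the fold changes.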
